A study of Mus musculus with 24 samples.

Results

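The genes described here are 10 genes of branched-chain amino acid (BCAA) breakdown, chosen by name as the rows for Bckdha, Bckdhb, Dbt, Bckdk, Ppm1k, Ivd, Mccc1, Auh, Hibadh and Acadsb among the 55421 genes of the deposited tables. They were measured by poly(A) RNA-seq in hepatocytes, the parenchymal cells of the liver, obtained from C57BL/6J mice by perfusion of the liver in 2 steps. All 24 libraries came from mice that had been on drug or vehicle since 4 months of age, and the diet was assigned at 18 months for 9 weeks. The ND + veh group (n = 8) stayed on normal diet with vehicle, the HFD + veh group (n = 7) ate vehicle in a diet whose fat supplied 60% of the calories, and the HFD + eRapa group (n = 9) was given the same high-fat diet with encapsulated rapamycin at 42 ppm. Rapamycin is an inhibitor of the mTORC1 kinase. No group on normal diet with rapamycin was included, so an effect of the drug without the high-fat diet cannot be told apart from its effect on that diet. The 3 comparisons share groups: HFD + veh enters the first and the second, HFD + eRapa the second and the third, and ND + veh the first and the third.

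Leucine, valine and isoleucine first lose their amino group to a branched-chain aminotransferase, an enzyme that liver is known to hold little of, so that much of the resulting keto acid reaches the liver from muscle. The branched-chain keto acid dehydrogenase complex (BCKDH) in the mitochondrion then commits the keto acids to oxidation. BCKDH is switched off when the kinase encoded by Bckdk phosphorylates its E1 alpha subunit, and switched on when the phosphatase encoded by Ppm1k removes the phosphate. After BCKDH the 3 amino acids follow separate routes, leucine to acetyl-CoA and acetoacetate, valine to propionyl-CoA, and isoleucine to acetyl-CoA and propionyl-CoA. The comparisons address how a high-fat diet late in life, without and with rapamycin, alters gene expression in hepatocytes, read here for the genes of this pathway.

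The promoters of the phosphatase gene Ppm1k and of the E1 beta gene Bckdhb are shown because these genes had the smallest adjusted p-values of the 10, and that of Bckdk because its product opposes that of Ppm1k. Each sequence holds the 250 bases before the RefSeq start of the gene (GRCm38.p6), written 5′ to 3′ on the strand of the gene, and 9 of the 10 genes had an entry, Dbt being the exception. Capitals mark matches, on either strand, to the nuclear receptor half-site AGGTCA, the GC box GGGCGG or the CCAAT box CCAAT.
Ppm1k, chr6:57535488-57535737, minus strand: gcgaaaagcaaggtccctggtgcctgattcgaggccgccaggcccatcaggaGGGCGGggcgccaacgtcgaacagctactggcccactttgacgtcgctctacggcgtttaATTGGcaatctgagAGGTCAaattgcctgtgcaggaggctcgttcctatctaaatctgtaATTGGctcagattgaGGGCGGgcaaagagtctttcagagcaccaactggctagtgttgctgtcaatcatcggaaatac
Bckdhb, chr9:83924887-83925136, plus strand: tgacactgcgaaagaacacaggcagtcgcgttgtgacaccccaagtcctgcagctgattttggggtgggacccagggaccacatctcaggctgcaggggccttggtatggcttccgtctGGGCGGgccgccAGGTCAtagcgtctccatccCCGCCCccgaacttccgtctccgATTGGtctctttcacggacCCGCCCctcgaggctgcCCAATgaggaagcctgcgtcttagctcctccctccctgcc
Bckdk, chr7:127903823-127904072, plus strand: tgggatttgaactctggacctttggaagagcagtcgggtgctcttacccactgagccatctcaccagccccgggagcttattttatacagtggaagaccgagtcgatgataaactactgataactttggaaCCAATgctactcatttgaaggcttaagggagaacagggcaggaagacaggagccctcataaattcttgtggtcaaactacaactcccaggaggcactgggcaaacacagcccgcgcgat

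AGGTCA was found in the promoters of Ppm1k and Bckdhb, 2 of the 9 searched, and in 14.0% of the 32851 promoters of the same length in the mouse set. It lay 124 bases before the start of Ppm1k and 119 bases before that of Bckdhb. The GC box was in 6 of 9 promoters against 32.7% of all, and the CCAAT box in 6 of 9 against 33.8% of all. The Bckdk window held 1 CCAAT box and no GC box. Neither the E-box CACGTG (6.02% of all promoters) nor the sterol response element TCACNCCAC (1.05%) was present in any of the 9. These are letter matches in a short window and say nothing of whether a factor is bound.

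Levels are given as CPM (counts scaled to library size) adjusted by the trimmed mean of M-values (TMM) where groups are compared, and as FPKM, which takes account of transcript length, where genes are compared. Libraries held 17739252 to 25945134 counts, and the lowest count of any of the 10 genes in any library was 174, for Bckdk, which gives a counting error of 7.58%. Library HFD + veh 6 and the other libraries of its group differed widely in immune cell transcripts: the summed CPM of macrophage, lymphocyte and neutrophil markers was 149 to 4360 in HFD + veh, 41.3 to 1330 in ND + veh and 17.6 to 955 in HFD + eRapa. Within HFD + veh the libraries 3, 4, 5 and 6 held 2120 to 4360 and the libraries 1, 2 and 7 held 149 to 803. The summed CPM of hepatocyte markers was 55400 to 168000 over the 24 libraries, and Alb, which encodes albumin, the main protein that hepatocytes secrete, was at 31430 CPM or more in each. In bulk RNA, fewer cells of a type and less RNA per cell cannot be told apart.

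Per length, Hibadh was the most abundant of the 10 genes by FPKM, at 162 ± 21.0 (SD, n = 24), and Bckdk the least, at 5.49 ± 1.50. Bckdha followed Hibadh at 110.5 ± 26.8 FPKM. Bckdhb (65.9 ± 14.0 FPKM), Ivd (58.4 ± 14.0) and Acadsb (55.6 ± 6.74) were within 1 SD of their neighbours, as were Mccc1 (22.0 ± 3.49) and Auh (21.3 ± 3.93). Dbt lay between these at 27.9 ± 4.47 FPKM and Ppm1k below them at 12.3 ± 3.57. When CPM was instead divided by the union of annotated exons, the order changed, with Bckdha first at 45.2 CPM per kb, Hibadh at 26.7 after Ivd and Dbt, Bckdk at 3.46 and Auh last at 2.86. The FPKM values therefore place the kinase below the phosphatase, and CPM per kb did so too (11.2 for Ppm1k).

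**Figure D1:**
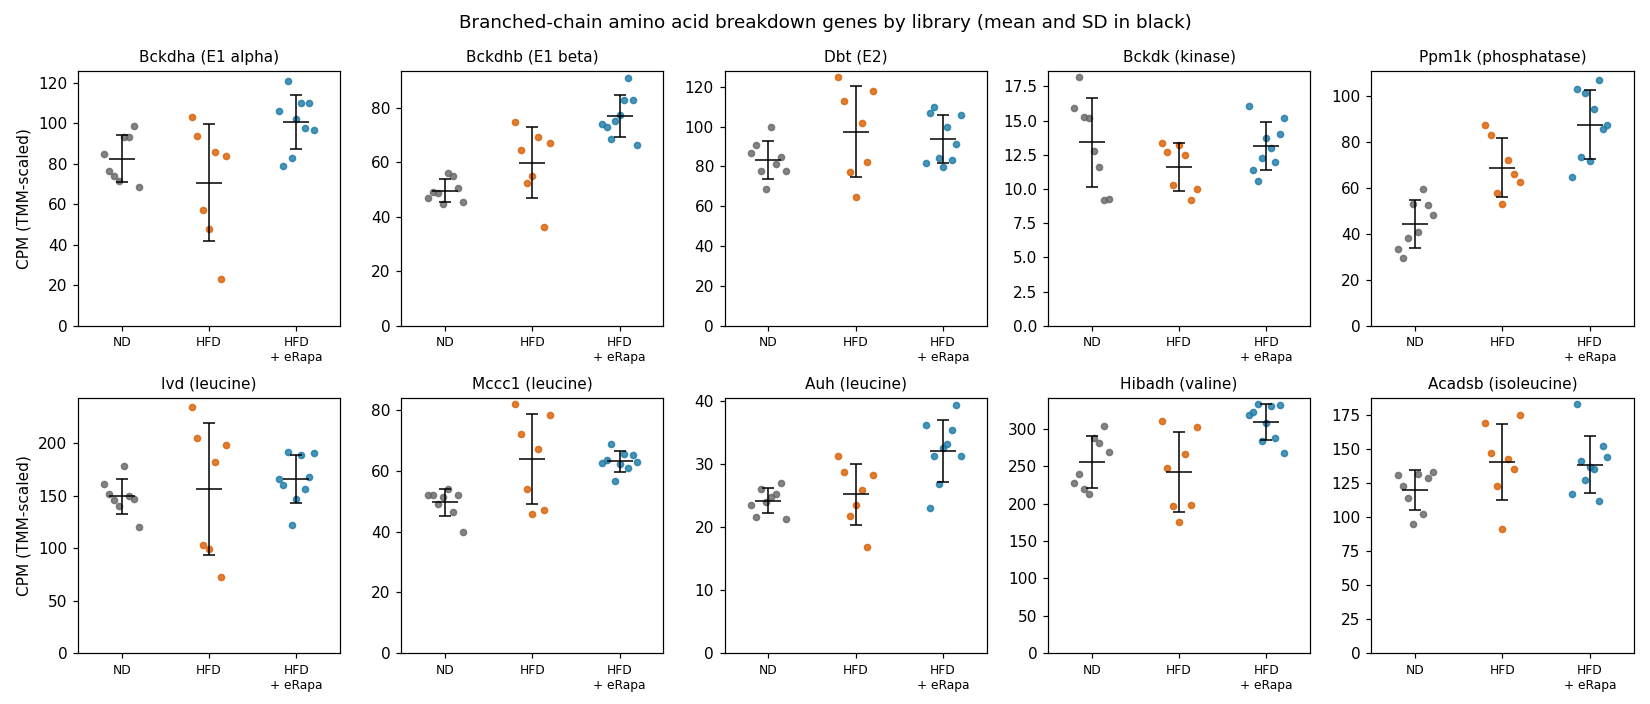
CPM (y axes, from 0) of the 10 genes in each library (points) of the ND, HFD and HFD + eRapa groups, with the mean and SD in black. Ppm1k in HFD + eRapa sits at 64.7 to 107 CPM, above every ND + veh library (29.4 to 59.4), whereas Bckdk covers 9.19 to 18.2 CPM over all groups and its groups overlap.

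The E1 alpha and E1 beta subunits of BCKDH are encoded by Bckdha (chr7:25629946-25658981) and Bckdhb (chr9:83925145-84124240), and its E2 core by Dbt (chr3:116513070-116549981). Bckdhb was at 44.5, 48.8 and 56.0 CPM (lowest, median and highest) in ND + veh, at 36.4, 64.4 and 74.7 in HFD + veh and at 66.4, 75.1 and 90.8 in HFD + eRapa. Every HFD + eRapa library was above every ND + veh library, and the HFD + veh libraries spread over both ranges and below, with HFD + veh 6 the lowest of all. The level of Bckdhb in HFD + eRapa was 1.55-fold that in ND + veh (95% interval 1.33 to 1.81, log2 fold change 0.63, SE 0.107, adjusted p = 0.000247 by the quasi-likelihood test of edgeR). Against HFD + veh the ratio was 1.28-fold (1.10 to 1.50, adjusted p = 0.0159). Between HFD + veh and ND + veh the difference was 0.27 on the log2 scale (0.04 to 0.51) and did not pass the test (adjusted p = 0.0734), but it did without HFD + veh 6 (0.33, adjusted p = 0.0185). It also passed on log2(FPKM + 1) (limma, 0.00715) and with at least 10 counts in every library (0.0479). So it did with the immune score (0.0476) and the endothelial, stellate and cholangiocyte score (0.0469). It did not pass with DESeq2 (0.0595), voom (0.152), the replicate block (0.133), only the groups compared (0.162) or no filter (0.23).

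Bckdha was at 68.4, 80.7 and 98.5 CPM in ND + veh, at 22.9, 84.0 and 103.5 in HFD + veh and at 78.9, 102.3 and 120.8 in HFD + eRapa. The 3 groups overlapped, and the HFD + veh libraries 3, 4 and 6 (57.2, 47.6 and 22.9 CPM) were below every library of the other groups. No comparison passed the test for Bckdha: the log2 difference of HFD + eRapa from HFD + veh was 0.51 (0.10 to 0.92, adjusted p = 0.0531), that of HFD + veh from ND + veh was -0.22 (-0.64 to 0.20, adjusted p = 0.43) and that of HFD + eRapa from ND + veh was 0.29 (-0.11 to 0.68, adjusted p = 0.372). Without HFD + veh 6 the first of these was 0.36, the lowest value on leaving out any library. This difference did pass with DESeq2 (adjusted p = 0.0419), with voom (0.0254), on log2(FPKM + 1) and log2(FPKM + 0.1) (limma, 0.0407 and 0.0425), and on leaving out any 1 of 6 libraries (down to 0.0186). A gene on the opposite strand, B3gnt8, overlaps 61.7% of the exon bases of Bckdha. Whether the counting used strand is not given in the sources used here. The effect of the overlap on the counts of Bckdha, and on those of B3gnt8 (mean 3.33 CPM), is therefore not known.

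Dbt was at 68.5, 82.9 and 100.3 CPM in ND + veh, at 64.8, 102.0 and 125.0 in HFD + veh and at 79.9, 91.5 and 109.8 in HFD + eRapa. The ranges overlapped in all comparisons. The log2 differences were 0.22 (-0.03 to 0.48, adjusted p = 0.185) for HFD + veh against ND + veh, -0.06 (-0.31 to 0.20, adjusted p = 0.759) for HFD + eRapa against HFD + veh and 0.17 (-0.08 to 0.41, adjusted p = 0.4) for HFD + eRapa against ND + veh. The E3 subunit gene Dld, which also serves the pyruvate and oxoglutarate dehydrogenases, rose in HFD + veh (165 ± 21.0 CPM) and HFD + eRapa (158 ± 18.7) relative to ND + veh (129 ± 11.2), by 1.28-fold in the first case (adjusted p = 0.00822) and by a log2 difference of 0.29 in the second (adjusted p = 0.0235). The first of these calls was lost without HFD + veh 6 (adjusted p = 0.0532), and the second without ND + veh 1, 4 or 6 (up to 0.086).

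Ppm1k (chr6:57506502-57535468), the phosphatase that switches BCKDH on, had the largest change of the 10 genes in 2 of the 3 comparisons. It was at 29.4, 44.4 and 59.4 CPM in ND + veh, at 52.9, 66.0 and 87.2 in HFD + veh and at 64.7, 87.1 and 106.6 in HFD + eRapa. HFD + eRapa and ND + veh did not overlap, and HFD + veh overlapped both. Relative to ND + veh, Ppm1k rose 1.55-fold in HFD + veh (1.25 to 1.92, log2 0.63, SE 0.148, adjusted p = 0.00517) and 1.97-fold in HFD + eRapa (1.61 to 2.41, log2 0.98, SE 0.142, adjusted p = 4.97e-05). The step from HFD + veh to HFD + eRapa was 1.27-fold (1.03 to 1.56) and did not pass the test (adjusted p = 0.0708), but it did without HFD + veh 1, HFD + veh 2 or HFD + eRapa 1 (down to 0.0335). On the FPKM scale the difference of HFD + veh from ND + veh was 0.40 on log2(FPKM + 1) and no longer passed (limma, adjusted p = 0.109).

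Bckdk (chr7:127904082-127910221), the kinase that switches BCKDH off, passed the test in none of the comparisons. It was at 9.19, 14.0 and 18.2 CPM in ND + veh, at 9.19, 12.5 and 13.4 in HFD + veh and at 10.6, 13.0 and 16.1 in HFD + eRapa. All 3 ranges overlapped, and ND + veh was the widest, with the libraries 7 and 8 at 9.19 and 9.29 CPM and the libraries 1 to 4 at 15.2 to 18.2. The log2 differences were -0.21 (-0.50 to 0.08, adjusted p = 0.267) for HFD + veh against ND + veh, 0.18 (-0.10 to 0.46, adjusted p = 0.327) for HFD + eRapa against HFD + veh and -0.03 (-0.30 to 0.24, adjusted p = 0.92) for HFD + eRapa against ND + veh. In folds, the last interval runs from 0.811 to 1.18, so that a change of Bckdk as large as the change of Ppm1k in the same comparison lies outside it. These are RNA levels, and neither the proteins nor the phosphorylation of BCKDH was measured here.

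In leucine breakdown, Ivd (isovaleryl-CoA dehydrogenase, chr2:118861954-118882909) acts first after BCKDH. Ivd was at 120.0, 148.5 and 178 CPM in ND + veh, at 72.8, 182 and 235 in HFD + veh and at 122, 166 and 192 in HFD + eRapa. HFD + veh held both the lowest and the highest values, with the libraries 3, 4 and 6 at 72.8 to 103 CPM and the libraries 1, 2, 5 and 7 at 182 to 235, above every ND + veh library. The log2 differences were 0.07 (-0.32 to 0.45), 0.08 (-0.29 to 0.46) and 0.15 (-0.21 to 0.51) for HFD + veh against ND + veh, HFD + eRapa against HFD + veh and HFD + eRapa against ND + veh, with adjusted p = 0.819, 0.759 and 0.652.

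Mccc1 (chr3:35959312-36000678) encodes the biotin-carrying subunit of methylcrotonyl-CoA carboxylase, the next step. It was at 40.0, 51.6 and 54.0 CPM in ND + veh, at 45.9, 67.3 and 81.9 in HFD + veh and at 56.5, 62.8 and 69.0 in HFD + eRapa. The 9 HFD + eRapa libraries were all above the ND + veh libraries and close to one another, with a coefficient of variation of 5.43% against 23.3% in HFD + veh. Mccc1 rose 1.29-fold in HFD + veh relative to ND + veh (1.10 to 1.50, adjusted p = 0.0199) and 1.27-fold in HFD + eRapa relative to ND + veh (1.10 to 1.48, adjusted p = 0.0249). HFD + eRapa and HFD + veh differed by -0.01 on the log2 scale (-0.23 to 0.21, adjusted p = 0.936). The first call was lost without ND + veh 1 (adjusted p = 0.0553), without the filter on low counts (0.0905), with only the groups compared (0.0794) and with a replicate block (0.0549). The second was lost without ND + veh 1, 4, 6 or 8 (up to 0.0579), without the filter (0.0878), with the endothelial, stellate and cholangiocyte score (0.0611) and on log2(FPKM + 1) (limma, 0.109).

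Auh (chr13:52835119-52929681) encodes methylglutaconyl-CoA hydratase, which follows the carboxylase and is also an RNA-binding protein. It was at 21.3, 24.4 and 26.9 CPM in ND + veh, at 16.8, 25.8 and 31.2 in HFD + veh and at 23.0, 32.5 and 39.3 in HFD + eRapa. Of the HFD + eRapa libraries, only the libraries 2 and 4 (23.0 and 26.8 CPM) were within the ND + veh range. Auh rose 1.33-fold in HFD + eRapa relative to ND + veh (1.14 to 1.55, adjusted p = 0.0133) and 1.27-fold relative to HFD + veh (1.08 to 1.50, adjusted p = 0.0216), while the difference of HFD + veh from ND + veh was 0.06 on the log2 scale (-0.18 to 0.30, adjusted p = 0.74). On log2(FPKM + 1) both calls were lost (limma, adjusted p = 0.0939 and 0.163), and that against HFD + veh also with the replicate block (0.0663).

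Hibadh (chr6:52546228-52640389) encodes 3-hydroxyisobutyrate dehydrogenase of the valine route. It was at 213, 254 and 304 CPM in ND + veh, at 175, 248 and 310.3 in HFD + veh and at 268, 319 and 333 in HFD + eRapa. The groups overlapped, and 3 HFD + veh libraries, 3, 4 and 6, were below every ND + veh library. Hibadh rose 1.28-fold in HFD + eRapa relative to HFD + veh (1.08 to 1.51, adjusted p = 0.0231), a call that was lost without HFD + veh 3, 4 or 6 (adjusted p up to 0.0631). Against ND + veh the HFD + eRapa group differed by 0.28 on the log2 scale (0.05 to 0.51, adjusted p = 0.104), and the HFD + veh group by -0.07 (-0.32 to 0.17, adjusted p = 0.668).

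Acadsb (chr7:131410601-131448944) encodes the short/branched-chain acyl-CoA dehydrogenase of the isoleucine route. It was at 95.1, 125.9 and 133 CPM in ND + veh, at 91.6, 143 and 175 in HFD + veh and at 112, 137 and 183 in HFD + eRapa, with all ranges overlapping. The log2 differences were 0.23 (-0.02 to 0.49, adjusted p = 0.167), -0.02 (-0.27 to 0.23, adjusted p = 0.913) and 0.21 (-0.03 to 0.45, adjusted p = 0.268) in the same order of comparisons as for Ivd.

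**Figure D2:**
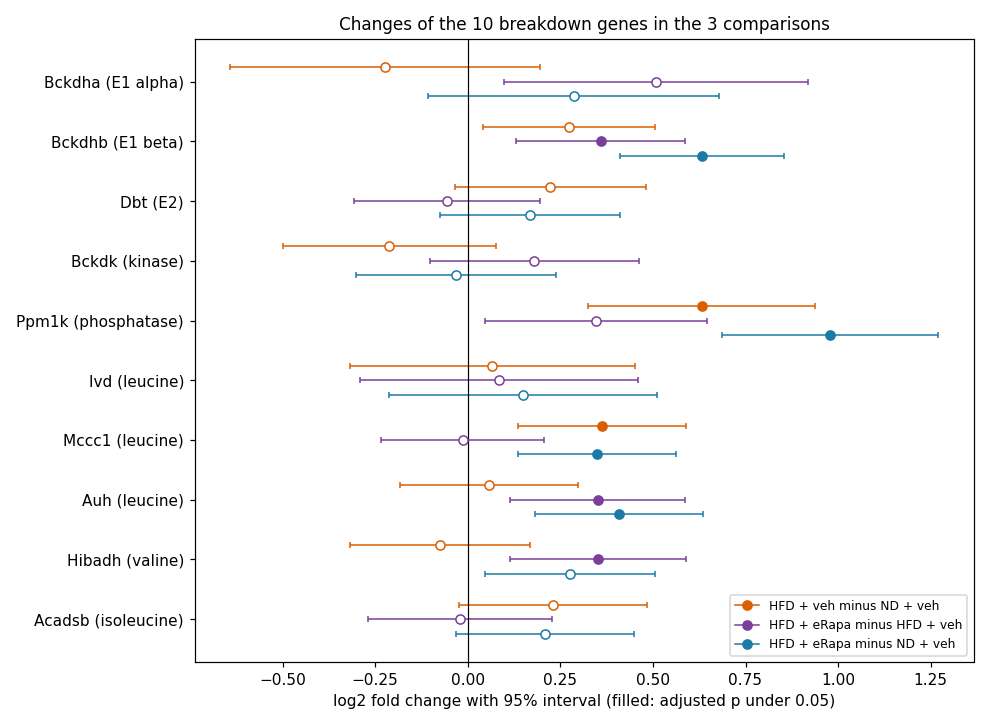
log2 fold change (x axis) of each of the 10 genes, by role in the pathway, with its 95% interval, in the 3 comparisons by colour. Filled points have an adjusted p under 0.05. Ppm1k in HFD + eRapa against ND + veh lies farthest to the right at 0.98, and all the intervals of Bckdk include 0.

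By count, 2 of the 10 genes rose and none fell in HFD + veh against ND + veh (Ppm1k and Mccc1), where 25.9% of the 13847 genes tested passed the test, 16.0% as higher and 9.86% as lower. This share of the 10 genes is near the background. The median log2 difference of the 10 genes was 0.15, against 0.05 for all genes tested, and none of the 10 had groups that did not overlap, against 2.44% of all genes. Between HFD + eRapa and HFD + veh, 3 of the 10 rose in the former and none fell (Bckdhb, Auh and Hibadh). There 32.0% of all genes passed, 10.9% as higher and 21.1% as lower, the median was 0.26 for the 10 genes against -0.04 for all, and none of the 10 had groups that did not overlap, against 2.59% of all genes. In HFD + eRapa against ND + veh, 4 of the 10 rose and none fell (Ppm1k, Bckdhb, Auh and Mccc1), where 13.5% of all genes passed, 6.93% as higher and 6.54% as lower. The median was 0.28 for the 10 genes against -0.03 for all, and 3 of the 10 (Bckdhb, Ppm1k and Mccc1) had groups that did not overlap, against 3.37% of all genes.

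Several of the 10 genes were low in HFD + veh libraries rich in immune transcripts. HFD + veh 1 was the highest of its group in 9 of the 10 genes, HFD + veh 3 was below the group median in all 10, and HFD + veh 4 and 6 were each the lowest in 5. HFD + veh 5 held 2480 CPM of immune markers and was below the group median in none of the 10 genes. When the fit held the immune marker score as a term, 0 of the 10 genes passed the test in HFD + eRapa against HFD + veh, and 0 did so with the endothelial, stellate and cholangiocyte score, while over all genes 955 and 761 passed. The log2 difference of Bckdhb was then 0.24 and 0.23, that of Auh 0.16 and 0.17, that of Hibadh 0.29 and 0.22 and that of Ppm1k 0.38 in both against 0.36, 0.35, 0.35 and 0.35 without a score. What part the immune transcripts have in these differences was not tested. Without the HFD + veh libraries 3, 4, 5 and 6, chosen by an immune score over 1 after the data were seen, 0 of the 10 passed in that comparison and 449 of all genes did, with 3 HFD + veh libraries left. Bckdhb was then 0.16 higher on the log2 scale (adjusted p = 0.545), Auh 0.13 (0.745) and Hibadh 0.11 (0.776). In the same fit 707 of all genes passed in HFD + veh against ND + veh, and 5 of the 10 rose, namely Ppm1k, Mccc1, Bckdhb (0.48, adjusted p = 0.00619), Dbt (0.51, 0.0157) and Ivd (0.52, 0.0218).

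In HFD + eRapa against ND + veh, whose ranges of immune transcripts overlapped, 4 of the 10 genes passed with the immune score, 3 with the other score and 6 without the 4 HFD + veh libraries. Over all genes 2815, 2692 and 2502 passed in these fits, against 1865 without a score and with all libraries. The calls of Ppm1k and Bckdhb in that comparison passed in every alternative, with adjusted p from 2.41e-09 to 0.0174 for Ppm1k and from 6.55e-07 to 0.00164 for Bckdhb.

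**Figure D3:**
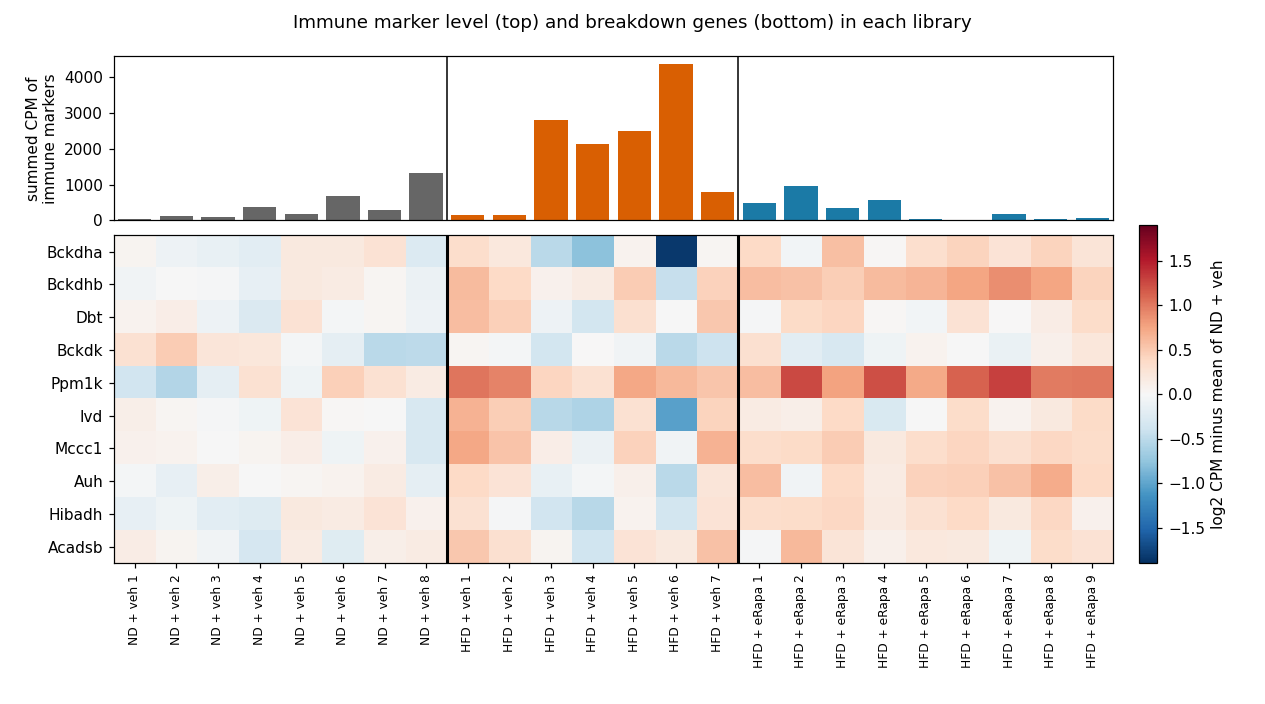
Top: summed CPM of immune markers (y axis, from 0) in each of the 24 libraries, coloured by group. Bottom: log2 CPM of the 10 genes minus their ND + veh mean in the same libraries, red for higher and blue for lower. HFD + veh 3, 4 and 6, with 2120 to 4360 CPM of immune markers, are blue for Bckdha and Ivd, HFD + veh 5 with 2480 is not, and Ppm1k is red in every HFD + veh and HFD + eRapa library.

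The genes varied together to unlike degrees within the groups. Over the 45 pairs of the 10 genes, the median Pearson r of log2 CPM was 0.72 in HFD + veh (n = 7), with 44 pairs positive, 0.29 in ND + veh (n = 8) with 31 positive and 0.14 in HFD + eRapa (n = 9) with 27 positive. In HFD + veh the pair Bckdha and Bckdhb had the highest r, 0.98, and in both other groups the pair Ivd and Mccc1 did (0.82 and 0.85). The points of a group share library depth and the immune transcripts given above, and the part of either in these values was not tested.

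Among the 7972 tested genes with a mean log2 CPM of at least 3, the gene most like each of 9 of the 10 over the 24 libraries is given by Pearson r. Bckdha was nearest to Coq9 (r = 0.97), Ivd to Sardh (0.93), Bckdhb to Dcxr (0.93), Hibadh to Hspd1 (0.93), Auh to Mdh2 (0.92) and Mccc1 to Abat (0.91). Acadsb was nearest to Cyp4v3 (0.88), Bckdk to Dhx30 (0.87) and Dbt to Dpyd (0.85). With group means removed r was 0.825 or higher for these 9 pairs.

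Outside the 10 genes, the rest of the pathway was read from a list of 15 measured genes. The cytosolic aminotransferase gene Bcat1 was below the filter, with 0 to 4 counts in a library and 0 CPM in all ND + veh libraries. The mitochondrial one, Bcat2, was at 19.6 ± 5.06 CPM in ND + veh, 18.0 ± 5.83 in HFD + veh and 16.2 ± 4.33 in HFD + eRapa, and passed the test in no comparison (adjusted p = 0.676, 0.59 and 0.39). Of the 15 genes, 7 rose and none fell in HFD + veh against ND + veh, 7 rose and none fell in HFD + eRapa against HFD + veh, and 11 rose and none fell in HFD + eRapa against ND + veh. These counts stand beside the background shares of 25.9%, 32.0% and 13.5% given above, and the median log2 differences were 0.34, 0.29 and 0.58. The groups did not overlap for 1, 3 and 9 of the 15 genes, against 2.44%, 2.59% and 3.37% of all genes.

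In HFD + veh against ND + veh the risen genes were Dld, Hibch, Aldh6a1, Echs1, Hsd17b10, Pcca and Mmut. Pcca, the biotin-carrying subunit of propionyl-CoA carboxylase, had the largest change, with 50.8, 62.2 and 81.0 CPM in ND + veh and 82.0, 109.6 and 139 in HFD + veh. The groups did not overlap, and Pcca was 0.73 higher on the log2 scale (0.49 to 0.97, adjusted p = 0.000223). Aldh6a1, the methylmalonate-semialdehyde dehydrogenase of the valine route, rose by 0.46 (adjusted p = 0.0143) and Mmut, methylmalonyl-CoA mutase, by 0.34 (0.0261). Hibch, which releases 3-hydroxyisobutyrate in the valine route, rose by 0.31 (0.0289). Both Hibch and Mmut lost the call on leaving out any of 7 libraries, Echs1 any of 4, Aldh6a1 ND + veh 1 or HFD + veh 6, and Hsd17b10 ND + veh 1.

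The genes that rose in HFD + eRapa relative to HFD + veh were Hibch, Echs1, Hadha, Hadhb, Hsd17b10, Acat1 and Pccb. Hsd17b10, the dehydrogenase of the isoleucine route, was at 63.2, 99.4 and 153.7 CPM in HFD + veh and 154.2, 207 and 246 in HFD + eRapa, without overlap, and rose by 0.86 (0.53 to 1.20, adjusted p = 0.000706). Acat1, the mitochondrial thiolase that ends isoleucine breakdown and also serves ketone bodies, rose by 0.63 (adjusted p = 0.00157). Echs1, Hadha and Hadhb, which also act in fatty acid oxidation, rose by 0.31, 0.54 and 0.40 (adjusted p = 0.0318, 0.00171 and 0.00692). The call of Echs1 was lost on leaving out any of 5 libraries (up to 0.0818), and that of Hibch without HFD + veh 4 (0.0582). With the immune score as a covariate 6 of the 15 passed, with the endothelial, stellate and cholangiocyte score 2 (Hadhb and Hsd17b10), and without the HFD + veh libraries of high immune score 1 (Hsd17b10). Over all genes 955, 761 and 449 passed in these fits, against 4432 in the main fit.

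Against ND + veh, all of the 15 passed as higher in HFD + eRapa except Bcat2, Acad8, Pccb and Mcee. Hsd17b10 was at 51.9, 73.9 and 98.2 CPM in ND + veh, below all HFD + eRapa libraries, and rose by 1.41 (1.09 to 1.74, adjusted p = 2.71e-06). Acat1 rose by 0.93 (adjusted p = 3.03e-05) from 344 ± 51.1 to 654 ± 52.2 CPM. Mccc2, the partner subunit of Mccc1, rose by 0.70 (0.00322) from 42.3 ± 7.80 to 68.6 ± 4.03 CPM. The count was 11 to 12 with either marker score or without the HFD + veh libraries of high immune score. Over all genes 2815 and 2692 passed with the immune and the other score and 2502 without those libraries, against 1865 in the main fit. Acad8, the isobutyryl-CoA dehydrogenase of the valine route, differed by -0.01 (-0.21 to 0.20, adjusted p = 0.986). It differed by -0.27 in HFD + veh against ND + veh (-0.49 to -0.05, adjusted p = 0.0624). In HFD + eRapa against HFD + veh the difference of Acad8 was 0.265 (0.05 to 0.48, adjusted p = 0.0534). The former passed on leaving out any 1 of 5 libraries (down to 0.0288), and the latter any 1 of 6 (down to 0.0226).

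**Figure D4:**
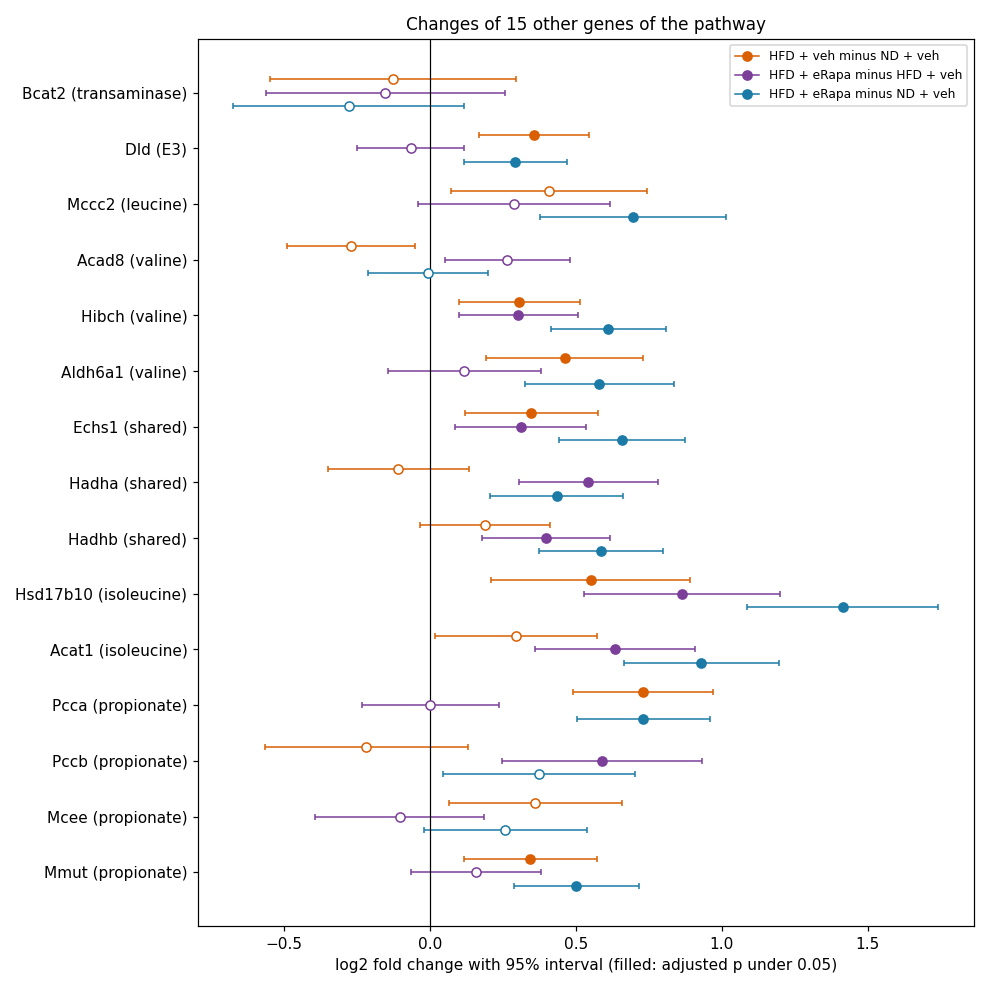
log2 fold change (x axis) with 95% interval of 15 other genes of the pathway in the 3 comparisons by colour, with filled points for an adjusted p under 0.05. Hsd17b10 lies farthest to the right at 1.41, and the 3 points of Bcat2 lie left of 0 with intervals that include it.

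The balance between partner genes was read from 5 log2 ratios of CPM within a library, chosen after the values were seen and given here as a description with no test. The ratio of Mccc1 to Mccc2, the subunits of methylcrotonyl-CoA carboxylase, was 0.25 ± 0.20 in ND + veh (n = 8), 0.23 ± 0.25 in HFD + veh (n = 7) and -0.12 ± 0.09 in HFD + eRapa (n = 9). It reached 0.01 at most in HFD + eRapa and 0.06 at least in HFD + veh, so these groups did not overlap, with a difference of -0.35. HFD + veh and ND + veh overlapped and differed by -0.02.

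The ratio of Pcca to Pccb, the subunits of propionyl-CoA carboxylase, was -1.15 ± 0.12 in ND + veh, -0.14 ± 0.36 in HFD + veh and -0.78 ± 0.14 in HFD + eRapa. HFD + veh was 1.01 higher than ND + veh and HFD + eRapa 0.65 lower than HFD + veh, without overlap in either case. On FPKM the second difference was -0.43, and the groups overlapped, at -0.491 to 0.676 in HFD + veh and -0.979 to 0.0854 in HFD + eRapa. On CPM, without the HFD + veh libraries 3 to 6, the differences of HFD + eRapa from HFD + veh were -0.22 for Mccc1 to Mccc2 and -0.45 for Pcca to Pccb. Neither pair of groups overlapped there.

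In BCKDH, the ratio of Bckdhb to Dbt was -0.75 ± 0.12 in ND + veh, -0.70 ± 0.29 in HFD + veh and -0.28 ± 0.29 in HFD + eRapa. HFD + eRapa was 0.42 above HFD + veh and 0.47 above ND + veh, with overlap in both cases, and HFD + veh and ND + veh differed by 0.05. On CPM the ratio of Bckdhb to Bckdha exceeded its ND + veh value by 0.60 in HFD + veh, and by 0.28 without the HFD + veh libraries 3 to 6, without overlap. In HFD + eRapa this ratio exceeded its ND + veh value by 0.345 and differed from HFD + veh by -0.255, with overlap in both cases. On FPKM, HFD + veh exceeded ND + veh by 0.72 in this ratio. The groups overlapped there, at -1.01 to 0.84 in HFD + veh and -1.28 to -0.717 in ND + veh. The ratio of the kinase gene Bckdk to the phosphatase gene Ppm1k was -1.73 ± 0.67 in ND + veh, -2.56 ± 0.28 in HFD + veh and -2.72 ± 0.38 in HFD + eRapa. It was 0.83 lower in HFD + veh and 1.00 lower in HFD + eRapa than in ND + veh, with overlap in both cases, and on FPKM the same differences were -0.47 and -0.67.

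**Figure D5:**
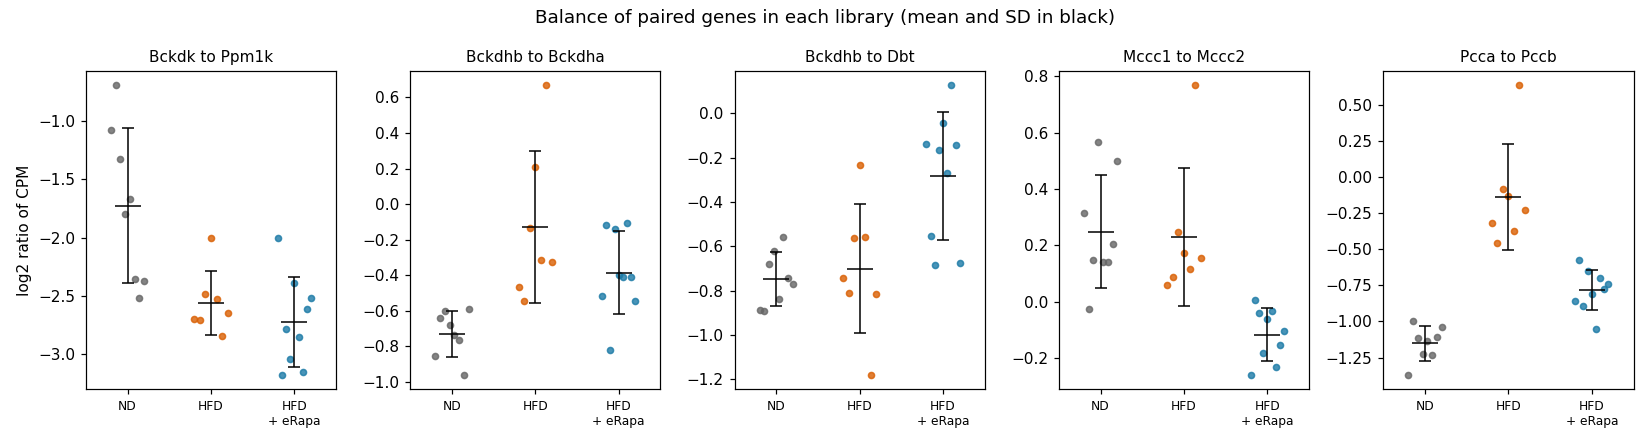
log2 ratio of CPM (y axes, each with its own scale) of 5 pairs of partner genes in each library (points) by group, with the mean and SD in black. The HFD + eRapa libraries lie below all HFD + veh libraries for Mccc1 to Mccc2 (0.01 at most against 0.06 at least) and for Pcca to Pccb.

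Of 6 genes listed beside the pathway, 0 passed in HFD + veh against ND + veh, where 25.9% of all genes did. In HFD + eRapa, 3 passed against HFD + veh and 3 against ND + veh, where 32.0% and 13.5% of all genes did. In HFD + eRapa, Ppara, the fatty acid-sensing nuclear receptor, rose relative to HFD + veh by 1.06 (0.57 to 1.55, adjusted p = 0.00236) and relative to ND + veh by 0.71 (adjusted p = 0.0363). Acly, the ATP-citrate lyase that the BCKDH kinase and phosphatase also act on, fell by 0.67 relative to HFD + veh (adjusted p = 0.0422) and by 0.90 relative to ND + veh (0.0129). The Ppara call against ND + veh was lost on leaving out any of 10 libraries (adjusted p up to 0.0801), and the Acly call against HFD + veh on leaving out any of 14 (up to 0.0831). Ppargc1a, a coactivator of mitochondrial genes, fell by 0.89 (0.00525) and by 0.78 (0.0176), the latter a call lost without ND + veh 6 (0.0526). Without the HFD + veh libraries of high immune score, neither Ppara (0.58, adjusted p = 0.303) nor Acly (adjusted p = 0.132) passed against HFD + veh. That fit had 3 HFD + veh libraries left, and 449 of all genes passed. Over the 3 comparisons of the 6 genes, 0 calls were lost at the same sign with the immune score as a covariate. There 1 call was gained and 4 estimates changed sign. With the endothelial, stellate and cholangiocyte score 2 calls were lost, 1 was gained and 3 estimates changed sign.

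Srebf1, which encodes the lipogenic factor SREBP1, varied more within groups than between them, at 117 to 741 CPM in ND + veh, 90.9 to 1016 in HFD + veh and 165 to 555 in HFD + eRapa. Its log2 differences were 0.22 (-0.70 to 1.14, adjusted p = 0.74), -0.25 (-1.15 to 0.64, 0.688) and -0.03 (-0.90 to 0.83, 0.98). These intervals span more than 1 log2 unit. Klf15, a factor known to raise BCAA breakdown genes, differed by -0.15, 0.11 and -0.04 (adjusted p = 0.72, 0.785 and 0.954), and Slc25a44, a mitochondrial carrier of BCAAs, by -0.36, 0.07 and -0.30 (0.129, 0.799 and 0.266).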

How the data were processed

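Poly(A) RNA of hepatocytes was sequenced in 24 libraries, each taken here as a sample of its group as the labels give it, all in the same labelled batch. The authors aligned reads to mm10 with STAR and Gencode annotation, filtered them with SAMtools 1.1.0 and deposited a table of raw counts per gene from HTSeq 0.11.2. The authors also deposited FPKM per gene from Cufflinks. The strand setting of the counting is not given in the sources used here, and opposite-strand overlap was read from a GRCm38 annotation.

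Counts were analysed in R 4.3.3 with edgeR 4.0.16: filterByExpr left 13847 of 55421 genes, TMM scaling was applied, and a robust quasi-likelihood model of the 3 groups without covariates was fitted over all 24 libraries. P-values were adjusted over all genes tested by the method of Benjamini and Hochberg, and a gene was called at an adjusted p under 0.05. Log2 CPM used a prior count of 2. Alternatives were DESeq2 1.42.0, limma 3.58.1 with voom or on log2(FPKM + 1) and log2(FPKM + 0.1), DESeq2 size factors, no filter, at least 10 counts in every library, only the groups compared, the replicate number as a block, marker scores as covariates, and leaving out libraries. The fit was tested on simulated data. Depth was 17739252 to 25945134 counts, and counting error does not cover variation between animals. No library repeated another: the lowest chi-square per degree of freedom over 85 pairs was 11.3. Where nothing says that libraries came from separate animals, p-values measure the spread between libraries. The 10 genes, the wider list and the marker lists were chosen with earlier results of these data known. Named were all 10 genes, the genes of the wider lists that passed the test, Bcat1, Bcat2, Dld, Srebf1 and Klf15, and the gene nearest to each of the 10 in pattern. One gene of the wider list and one nearest gene are not reported here. Acad8, Slc25a44 and the ratios of partner genes were added after their values were seen.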

Additional observations from a re-analysis of the deposited data

How the results depend on the processing

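For the 10 genes, the count called in HFD + veh against ND + veh was 2. It was 1 without the filter on low counts, with only the groups compared and with the replicate block, 4 with the endothelial, stellate and cholangiocyte score and 5 without the HFD + veh libraries of immune score over 1 (chosen after seeing the data), and 1 to 3 on leaving out each library, with 1 reached without ND + veh 1. In HFD + eRapa against HFD + veh the count of 3 became 0 with either marker score and 0 without those libraries, and 2 to 5 on leaving out each library, with 5 without HFD + veh 1 or 2. In HFD + eRapa against ND + veh the count of 4 became 2 on log2(FPKM + 1) and 2 on log2(FPKM + 0.1). Over all genes 3584, 4432 and 1865 passed in the main fit. In the first comparison 2933 did without the filter, 2333 with only the groups compared and 2461 with the replicate block. There 1971 did with the endothelial, stellate and cholangiocyte score and 707 without those libraries. In the second comparison 955 did with the immune score, 761 with the other and 449 without those libraries. In the third 1476 and 1565 did on the FPKM scales.

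For the 15 other genes, the count of 7 in HFD + veh against ND + veh became 3 with voom, 2 without the filter, 4 with only the groups compared, 4 with the immune score, 4 without both ND + veh 4 and HFD + veh 6, and 2 to 9 on leaving out each library (2 without ND + veh 1, 4 without HFD + veh 6). The count of 7 in HFD + eRapa against HFD + veh became 2 with the endothelial, stellate and cholangiocyte score and 1 without the HFD + veh libraries of immune score over 1. Over all genes, the count in the first comparison went from 3584 to 1866 with voom, 2933 without the filter and 2333 with only the groups compared. It was 1197 with the immune score and 2300 without both ND + veh 4 and HFD + veh 6. In the second comparison the count over all genes went from 4432 to 761 and 449 in the settings named.

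Estimates that changed sign belonged to genes that had not passed the test. For HFD + veh against ND + veh, Ivd was -0.0395 with voom, -0.15 on both FPKM scales, -0.0144 with the replicate block and -0.0616 to 0.16 on leaving out libraries. Auh was -0.0027 to 0.10 on leaving out libraries, and Bckdha and Hibadh were 0.19 and 0.17 without the libraries of immune score over 1. For HFD + eRapa against HFD + veh, Ivd was -0.20 and -0.29 with the immune and the other score, -0.0173 without ND + veh 4 and HFD + veh 6, -0.36 without the libraries of high immune score and -0.0292 to 0.21 on leaving out libraries. Bckdk was -0.0259 and -0.0083 with the immune and the other score. Mccc1 was 0.0173 with voom, 0.028 without the filter, 0.0308 with the block and -0.0691 to 0.0579 on leaving out libraries. Dbt was -0.12 to 0.0156 on leaving out libraries, and Acadsb was 0.024 without the filter and -0.0889 to 0.04 on leaving out libraries. For HFD + eRapa against ND + veh, Bckdk was 0.0058 on log2(FPKM + 0.1) and -0.0953 to 0.0439 on leaving out libraries, and Ivd was -0.10 on both FPKM scales and -0.0614 with the endothelial, stellate and cholangiocyte score. The cause was not tested.

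Of the same-numbered pairs, 5 of 7 between HFD + veh and ND + veh (mean correlation 0.316), 2 of 7 between HFD + eRapa and HFD + veh (-0.245) and 2 of 8 between HFD + eRapa and ND + veh (-0.203) had a correlation of deviations over 0.1. Since not every pair did in any comparison, the numbers were not taken as pairs. That rule cannot exclude structure shared by some same-numbered libraries, whose correlations ran from -0.36 to 0.726 between HFD + veh and ND + veh. The replicate block moved the member counts to 1, 2 and 4. Bckdk had 174 counts at the lowest, a counting error of 7.58%. Its coefficient of variation between libraries was larger, at 24.3% in ND + veh, 14.9% in HFD + veh and 13.5% in HFD + eRapa.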

Other observations

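Within groups, Bckdk and Ppm1k were compared over libraries after their values were seen, 3 relations in all. In ND + veh (n = 8) Pearson's r of log2 CPM was -0.71 (exact permutation p = 0.0542, adjusted 0.163) and Spearman's rho -0.74 (exact permutation p = 0.0458, adjusted 0.137). In HFD + eRapa (n = 9) r was -0.45 (exact permutation p = 0.223, adjusted 0.335) and in HFD + veh (n = 7) 0.37 (exact permutation p = 0.389). None passed after adjustment. Without the 2 libraries of each group farthest from its median of Bckdk, r was -0.79 in ND + veh, -0.71 in HFD + eRapa and 0.41 in HFD + veh.

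Bcat1, at 0 counts in most libraries, had counts in HFD + veh 3, 4, 5 and 6, the libraries with the highest immune marker levels of all 24, and in HFD + eRapa 2, at 0.0446 to 0.169 CPM.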
